A study of Homo sapiens with 16 samples.

Results

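The subject is a module of 51 human genes of mitosis and the G2/M transition: the cyclins and activators of CDK1, the mitotic kinases and spindle checkpoint, the machinery of anaphase, the chromosomal passenger complex, the kinetochore, the spindle kinesins and the proteins that shape chromosomes. Its members were given as a list of symbols, and each was read on its detected probe with the highest mean level. Of the 51 members, 47 could be tested among 9028 genes in a first set of arrays and 50 among 10999 genes in a second. NDC80, NUF2, NCAPH and MKI67 in the first set, and NCAPH in the second, did not pass the detection filter (on 2 or more of the 8 arrays, a p under 0.01 against negative control beads).

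The cells were LNCaP-1F5, a derivative of the human prostate cancer line LNCaP into which a rat glucocorticoid receptor was introduced. By the labels, cells depleted of the pioneer factor FOXA1 with a pool of siRNAs ("siFoxA1") and "parental" cells were kept for 3 days in medium with stripped serum. They then received 100 nM dihydrotestosterone (DHT, an androgen), 100 nM dexamethasone (DEX, a synthetic glucocorticoid) or vehicle for 24 h. The DHT set holds DHT siFoxA1, DHT parental, vehicle siFoxA1 and vehicle parental titles on 8 arrays of version 3 of the Illumina HumanHT-12 beadchip, with 2 replicates each. The DEX set holds DEX siFoxA1, DEX parental, vehicle siFoxA1 and vehicle parental titles on 8 arrays of version 4. The labels name no control siRNA, so transfection and the siRNA cannot be told apart. All groups are 1 cell line, and the design text calls the replicates biological duplicates.

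Cells prepare for division by transcribing these genes together late in the cycle. In resting cells the DREAM complex holds many of them down through a promoter element called CHR, and in cycling cells MuvB with B-MYB and then FOXM1 turn them on, with NF-Y bound at CCAAT boxes nearby. CDK1 with cyclin B drives entry into mitosis, the spindle checkpoint delays anaphase until chromosomes are attached, and the anaphase-promoting complex then destroys cyclins and securin. Proliferation of LNCaP cells depends on androgen, and the response is known to vary with its dose.

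The titles of most arrays, in both sets, go against their own label checks. Every group below is therefore a group of titles, and no array was moved. FOXA1, the target of the siRNA, was 12.37, 12.28, 12.25 and 12.24 (log2 level) under DHT titles, against 13.68, 13.57, 13.61 and 13.54 under vehicle titles of the DHT set, a difference of -1.31 ± 0.07 by hormone title (limma, adjusted p = 5.29e-08). By siFoxA1 title it differed there by 0.06 ± 0.07 (adjusted p = 0.948). In the DEX set FOXA1 differed by -1.52 ± 0.11 by replicate number (adjusted p = 5.89e-07) and by -1.0 ± 0.11 by siFoxA1 title (adjusted p = 1.23e-05). FKBP5, a gene induced by androgens and glucocorticoids, differed by 4.58 ± 0.19 by replicate number in the DHT set and by 4.55 ± 0.08 by siFoxA1 title in the DEX set. By hormone title in the DHT set FKBP5 was at 0.42 ± 0.19 (adjusted p = 0.124). Differences are on the log2 scale, where 1 unit is a 2-fold change, and are given ± SE. They are DHT or DEX titles minus vehicle titles, siFoxA1 titles minus parental titles, or replicate 2 minus replicate 1, with 4 arrays on each side. Between 23.0% and 26.4% of probes were detected per array in the DHT set and between 33.7% and 36.3% in the DEX set, and the small number of arrays limits the precision of every value. Of 9 luminal prostate markers, 8 were detected on all arrays of both sets (KRT8 and KRT18 among them), while 0 of 5 basal markers passed the filter in the DHT set and 1 of 5, KRT15, in the DEX set. Of 16 markers of fibroblasts, smooth muscle, blood and endothelium, 3 passed in the DHT set (ACTA2, CD68 and VWF) and 4 in the DEX set (COL1A1, ACTA2, CD68 and HBB).

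Promoter sequence is shown first for 6 members on which the results turn: CKS2, the member that moved against the rest, 4 of the members with the strongest statistics in either set (CDCA5, TOP2A, PRC1 and CCNB2), and KIF20A, whose differences depended on the replicate number. Each line gives the 150 bases before the gene's start, 5′ to 3′ on the gene's strand, from RefSeq (GRCh38.p14). Capitals mark every CCAAT (the NF-Y box), TTTGAA or TTCGAA (forms of the CHR core) on either strand, so that ATTGG and TTCAAA are marked too.
CKS2 promoter, chr9:89311045-89311194 (plus strand): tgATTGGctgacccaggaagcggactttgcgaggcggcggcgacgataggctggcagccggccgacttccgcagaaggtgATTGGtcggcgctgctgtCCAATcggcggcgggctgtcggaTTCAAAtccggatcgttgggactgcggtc
CCNB2 promoter, chr15:59104996-59105145 (plus strand): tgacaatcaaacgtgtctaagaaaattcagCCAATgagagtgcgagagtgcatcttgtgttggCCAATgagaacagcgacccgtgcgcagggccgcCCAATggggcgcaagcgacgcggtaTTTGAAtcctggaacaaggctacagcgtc
PRC1 promoter, chr15:90994536-90994685 (minus strand): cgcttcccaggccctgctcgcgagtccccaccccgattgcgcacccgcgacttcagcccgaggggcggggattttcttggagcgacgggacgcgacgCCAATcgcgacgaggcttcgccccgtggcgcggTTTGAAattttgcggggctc
TOP2A promoter, chr17:40417897-40418046 (minus strand): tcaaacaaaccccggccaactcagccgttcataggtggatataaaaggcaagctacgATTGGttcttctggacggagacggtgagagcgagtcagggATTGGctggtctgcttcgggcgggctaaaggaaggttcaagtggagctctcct
KIF20A promoter, chr5:138178962-138179111 (plus strand): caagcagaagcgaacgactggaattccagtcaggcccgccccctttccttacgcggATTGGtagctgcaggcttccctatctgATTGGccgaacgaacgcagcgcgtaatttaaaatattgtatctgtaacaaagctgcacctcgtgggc
CDCA5 promoter, chr11:65084041-65084190 (minus strand): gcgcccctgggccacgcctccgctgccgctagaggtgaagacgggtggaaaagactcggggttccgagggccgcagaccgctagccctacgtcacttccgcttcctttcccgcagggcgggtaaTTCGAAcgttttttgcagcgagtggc
CKS2 and CCNB2 each have 3 CCAAT boxes followed by a single TTTGAA, counting both strands, and the TTTGAA begins 29 bases before the start in both. PRC1 has 1 CCAAT box and a TTTGAA in the same order. TOP2A and KIF20A have 2 CCAAT boxes and no TTTGAA in these stretches, and CDCA5 has neither, only a TTCGAA. Farther from its start TOP2A does have TTTGAA, beginning at 194 and at 151 bases, where the edge of the stretch cuts the second. Also outside the stretches, a CCAAT begins at 244 bases in CCNB2, and at 244 and 160 bases in TOP2A. In these stretches CKS2 and CCNB2 thus have the same counts of the 3 motifs, but not the same strands or spacing. Within the stretches the CCAAT boxes begin 148, 70 and 52 bases before the start in CKS2 and 120, 87 and 54 in CCNB2.

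Across the module, RefSeq windows of 300 bases (250 before to 50 after the start) were found for 43 of the 51 members, 54 windows in all. CCAAT was in 37 of the 54 (68.5%), against 34.6% of all 35116 promoter windows. TTTGAA was in 31 of the 54 (57.4%), against 15.2% of all windows, and TTCGAA in 4 (7.41%), against 1.45%. Both strands were searched, and matches of different motifs overlapped in 2 of the 54 windows. In 54 windows of G1/S and DNA replication genes, CCAAT was in 27, TTTGAA in 3 and TTCGAA in 1. A match is a description of the letters and not of binding. Members with a TTTGAA and members without one had similar medians in the 3 comparisons in which the module differed. These were -1.04 (26 members) and -1.06 (13 members) by hormone title in the DHT set, -1.47 (29 members) and -1.54 (13 members) by replicate number in the DEX set, and -0.67 and -0.64 over the same members by siFoxA1 title in the DEX set.

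**Figure D1:**
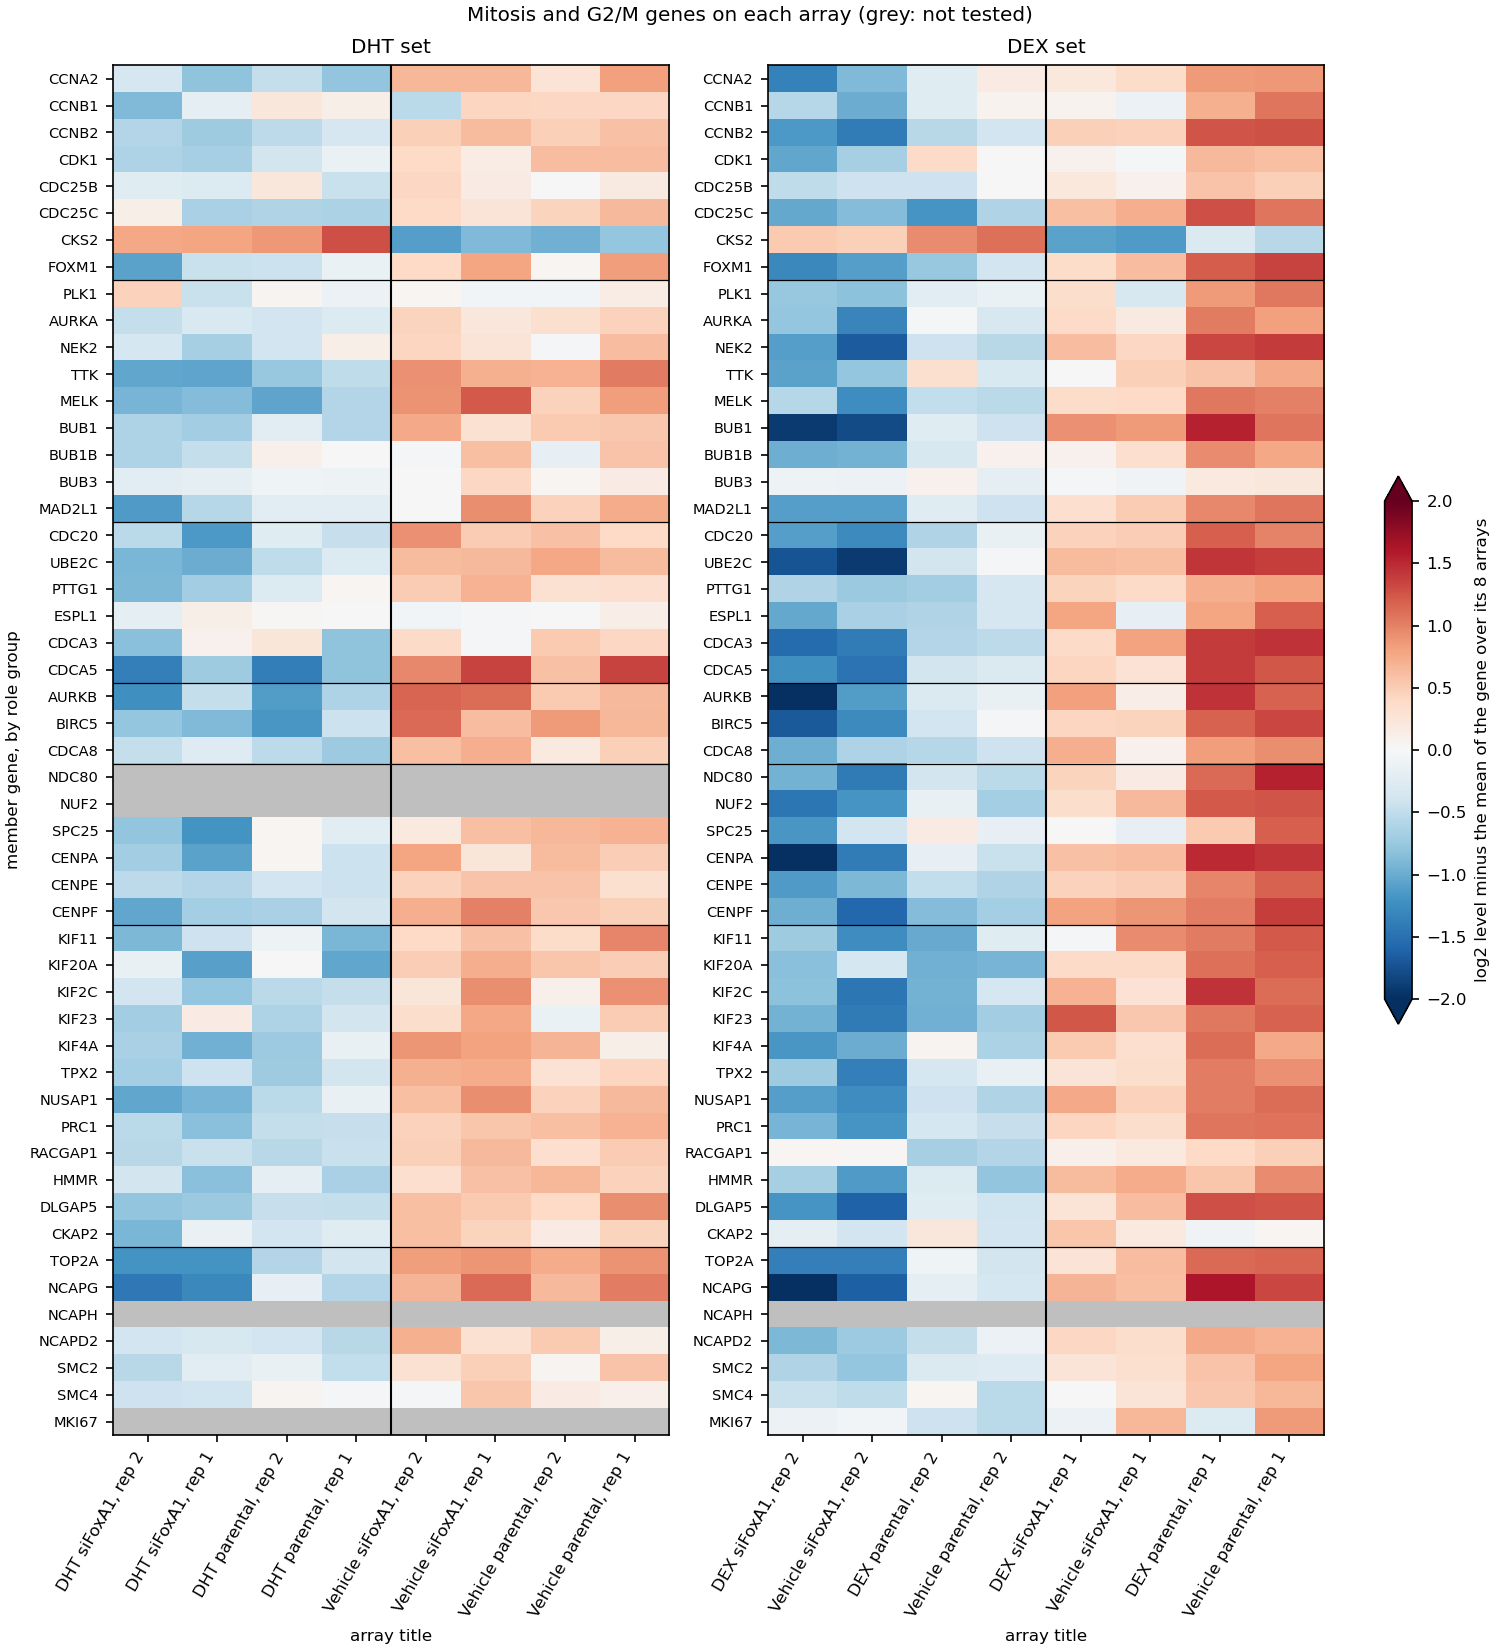
Levels of the 51 members (rows, by role group) on the 8 arrays of the DHT set (left, DHT titles left of the line) and of the DEX set (right, replicate 2 left of the line). Colour is the log2 level minus the gene's mean over the 8 arrays of its set; grey rows were not tested. CKS2 runs against the other rows in both sets.

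Hormone title in the DHT set compares the 4 arrays titled DHT with the 4 titled vehicle, along which FOXA1 differed and FKBP5 was not called. Most members were lower on arrays with DHT titles. Of 47 members tested, 38 fell and 1, CKS2, rose, where 23.1% of all 9028 genes were called at an adjusted p under 0.05 (12.5% lower and 10.6% higher). The median difference over the 47 members was -1.06 (-0.61 without background correction), against -0.02 over all genes, and the range ran from -2.14 for CDCA5 to 1.86 for CKS2. The 4 arrays with DHT titles lay wholly below the 4 with vehicle titles for 37 members and wholly above for 1, against 10% and 8.22% of all genes. In bulk RNA, fewer cells in mitosis and less of each RNA per cell cannot be told apart, here or in any comparison below. Only 28 of the 47 members were detected on all 8 arrays, and the others passed the filter partly through the arrays on which they were high. Of those 28, 24 fell and 1 rose. Sizes of the other members, NCAPG (detected on 5 arrays) among them, rest partly on arrays near background.

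Values for single arrays are given in the order siFoxA1 replicate 2, siFoxA1 replicate 1, parental replicate 2 and parental replicate 1. CKS2, the small subunit that binds CDK1 and helps it recognise phosphorylated substrates, had log2 levels of 12.25, 12.26, 12.35 and 12.77 on the arrays with DHT titles, against 10.37, 10.59, 10.52 and 10.70 on those with vehicle titles. It was higher on every array with a DHT title, by 1.86 ± 0.10 (limma, adjusted p = 2.58e-08). A second probe of CKS2 differed by 2.20 in the same direction. CDCA5 (sororin), which protects cohesin between sister chromatids, had 7.45, 8.11, 7.44 and 8.02 on the arrays with DHT titles, against 9.78, 10.18, 9.41 and 10.18 on those with vehicle titles. The groups were more than 1 unit apart, with a difference of -2.14 ± 0.12 (adjusted p = 5.19e-08). MELK, a kinase of the mitotic programme, had 7.14, 7.19, 7.01 and 7.48 on the arrays with DHT titles, against 8.96, 9.29, 8.53 and 8.90 on those with vehicle titles. Again no array with a DHT title reached one with a vehicle title, and MELK fell by 1.72 ± 0.15 (adjusted p = 3.58e-06). TOP2A, the topoisomerase that untangles sister DNA, had 7.53, 7.53, 8.13 and 8.35 on the arrays with DHT titles, against 9.55, 9.60, 9.46 and 9.62 on those with vehicle titles. Its vehicle arrays lay close together, its DHT arrays were lowest under siFoxA1 titles, and the difference was -1.67 ± 0.16 (adjusted p = 6.96e-06). PRC1, which bundles the microtubules of the central spindle, had 8.99, 8.69, 9.05 and 9.06 on the arrays with DHT titles, against 9.98, 10.08, 10.12 and 10.22 on those with vehicle titles. UBE2C, the ubiquitin-conjugating enzyme that works with the anaphase-promoting complex, had 8.21, 8.13, 8.62 and 8.86 on the arrays with DHT titles, against 9.76, 9.78, 9.90 and 9.76 on those with vehicle titles. Both were separated by hormone title, by -1.15 ± 0.11 for PRC1 and -1.35 ± 0.14 for UBE2C (adjusted p = 1.24e-05 and 1.42e-05).

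By role, CDK1 and its partners gave 5 members that fell and 1 that rose of 8 tested. CDK1 itself differed by -0.89 ± 0.13, cyclin A2 (CCNA2) by -1.20 ± 0.20 and cyclin B2 (CCNB2) by -1.07 ± 0.13. FOXM1, the transcription factor of the programme, and the phosphatase CDC25C, which activates CDK1, were called lower (adjusted p = 0.00937 and 0.026). Both were not well above background on any array with a DHT title, and FOXM1 was detected on 2 of the 4 with vehicle titles, so no size is given. CDC25B, a relative of CDC25C, and cyclin B1 (CCNB1) were not called, at -0.37 ± 0.16 and -0.36 ± 0.24 (adjusted p = 0.104 and 0.315). Among the mitotic kinases and checkpoint proteins 6 of 9 fell. Aurora A (AURKA), which matures centrosomes, differed by -0.72 ± 0.13, and MAD2L1, the checkpoint protein that holds back CDC20, by -1.07 ± 0.17. TTK, the kinase that starts the checkpoint, and BUB1 were not well above background on any array with a DHT title, so only bounds are given: TTK was at least 1.36-fold lower and BUB1 at least 1.35-fold lower (limma, adjusted p = 0.000186 and 0.00256). BUB3 fell by 0.31 ± 0.10 (adjusted p = 0.0443), the smallest called difference of the module, and its other detected probes differed by -0.13 and 0.01. PLK1, a kinase needed at many steps of mitosis, NEK2, which splits centrosomes, and BUB1B were not called (-0.03 ± 0.24, -0.63 ± 0.26 and -0.49 ± 0.28); the 3 were detected on 2 or 3 of the 8 arrays.

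In the pathway of anaphase and cohesion 4 of 6 fell: CDC20, which activates the anaphase-promoting complex (-1.20 ± 0.15), and securin (PTTG1), which the complex destroys (-0.92 ± 0.17), besides UBE2C and CDCA5. Separase (ESPL1), which cuts cohesin, differed by -0.02 ± 0.17 (adjusted p = 0.945) and CDCA3 by -0.65 ± 0.28 (adjusted p = 0.118). The 3 members of the chromosomal passenger complex tested fell. Aurora B (AURKB), its kinase, fell by 1.73 ± 0.19, survivin (BIRC5) was at -1.63 ± 0.19 and borealin (CDCA8) at -1.0 ± 0.16. Of the kinetochore and centromere group all 4 members tested fell. The centromeric histone CENPA fell by 1.08 ± 0.18, the kinetochore motor CENPE by 0.96 ± 0.17 and CENPF by 1.37 ± 0.18, while SPC25, of the microtubule-binding NDC80 complex, was at least 1.18-fold lower (adjusted p = 0.00646) and not well above background under DHT titles.

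The 12 kinesins and spindle proteins all fell in this comparison, with differences between -0.83 (CKAP2) and -1.32 (NUSAP1, which bundles spindle microtubules) for the 9 detected on arrays of both titles. KIF23, of the central spindle, was the only one of the 12 whose groups overlapped, and no size is given for it, as it was not well above background under DHT titles (adjusted p = 0.033). KIF11, the motor that separates spindle poles, was at least 1.32-fold lower and the chromokinesin KIF4A at least 1.35-fold lower (adjusted p = 0.00554 and 0.00377), both not well above background under DHT titles. TPX2, which activates Aurora A on the spindle, fell by 1.09 ± 0.16, RACGAP1, of the centralspindlin complex, by 0.98 ± 0.13, and HMMR, a spindle-associated protein, by 1.02 ± 0.15. Of 5 chromosome structure genes tested 4 fell, with the condensin subunit NCAPG at -1.74 ± 0.25, NCAPD2 at -0.83 ± 0.14 and SMC2 at -0.71 ± 0.18. SMC4, the other ATPase of condensin, was not called (-0.40 ± 0.15, adjusted p = 0.0709).

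**Figure D2:**
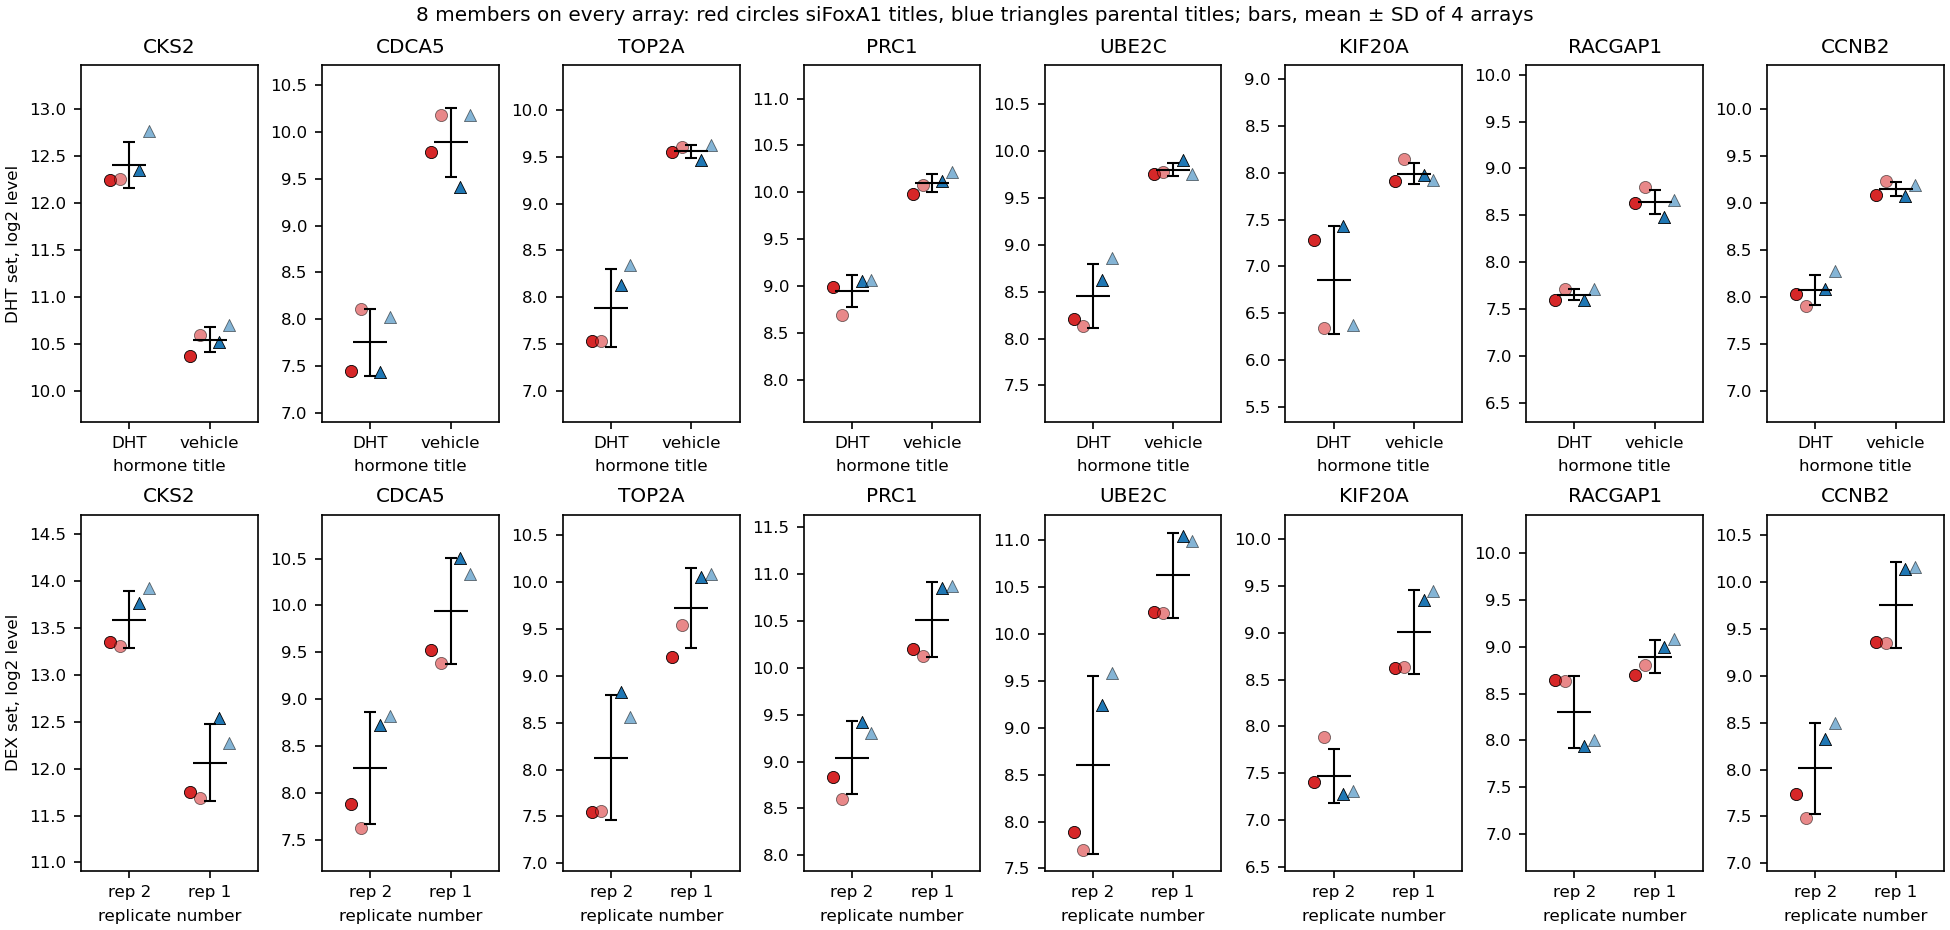
Log2 level of 8 members on every array of the DHT set (top, by hormone title) and the DEX set (bottom, by replicate number). Red circles are siFoxA1 titles and blue triangles parental titles; full colour is replicate 2 in the top row and DEX titles in the bottom row, pale colour replicate 1 and vehicle titles; bars are mean ± SD of 4 arrays. CKS2 is higher on the left of both rows, and the other 7 have lower means there.

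The siFoxA1 title, by which FOXA1 itself was not called in the DHT set, separated no member there. Of 47 members 0 were called, 0% of all 9028 genes were, and 7 members and 537 genes had an unadjusted p under 0.05 by limma. The median difference was -0.09, in a range from -0.60 to 0.30, and the arrays separated for 0 members, against 0.831% of all genes higher and 0.986% lower. Members with the largest statistics were CDK1 (-0.37 ± 0.13), SPC25 (-0.60 ± 0.24), CCNB1 (-0.58 ± 0.24) and UBE2C (-0.31 ± 0.14), each with an adjusted p of 0.831. CDK1 had log2 levels of 7.91, 8.93, 7.87 and 8.68 on the arrays with siFoxA1 titles, against 8.17, 9.15, 8.39 and 9.14 on those with parental titles, in the order DHT replicate 2, vehicle replicate 2, DHT replicate 1 and vehicle replicate 1. These values overlapped, and the vehicle arrays were the higher ones under either title.

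Replicate number likewise left the module nearly level in the DHT set, although 16.4% of all genes were called by it (7.65% higher and 8.74% lower). CDCA5 was the 1 member of 47 called. It had 7.45 and 7.44 on the replicate 2 arrays with DHT titles, against 8.11 and 8.02 on replicate 1, and 9.78 and 9.41 on the replicate 2 arrays with vehicle titles, against 10.18 and 10.18 on replicate 1, siFoxA1 titles first. Replicate 2 was thus lower under each title, by 0.61 overall (-0.61 ± 0.12, adjusted p = 0.00395). The members next in rank were not called: MAD2L1 (-0.44 ± 0.17, adjusted p = 0.0968), KIF23 (-0.54 ± 0.23, adjusted p = 0.135) and CDC20 (0.35 ± 0.15, adjusted p = 0.141). Over the 47 members the median was -0.11, against -0.02 over all genes.

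Whether these differences depended on each other was asked with 1 product term at a time. By hormone title and replicate number 7.26% of all genes were called in the DHT set (3.08% higher and 4.18% lower) and 1 of 47 members, KIF20A, the kinesin that carries the passenger complex to the central spindle. KIF20A had log2 levels of 7.28 and 7.43 on replicate 2 with DHT titles and 6.34 and 6.38 on replicate 1, against 7.91 and 7.97 on replicate 2 and 8.15 and 7.92 on replicate 1 with vehicle titles. Its DHT-minus-vehicle difference was -0.59 on replicate 2 and -1.67 on replicate 1, and the difference between these, 1.08 ± 0.30, had an adjusted p of 0.0256. Leaving out any 1 of 7 of the 8 arrays took this call away (adjusted p between 0.0125 and 0.15 over 14 alternatives, differences between 0.60 and 1.25). KIF2C, a kinesin that depolymerises microtubules, and BIRC5 followed without a call (0.91 ± 0.36 and -0.65 ± 0.32, adjusted p = 0.139 and 0.268). Over the module the hormone title difference had a median of -0.97 on replicate 2 and -1.10 on replicate 1, with 45 of 47 members below 0 on each.

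By hormone and siFoxA1 title 0 of 47 members and 0% of all genes were called in the DHT set, with 6 members and 200 genes at an unadjusted p under 0.05 (limma). The product was below 0 for 42 of the 47 members, with a median of -0.23 against -0.01 over all genes. For those 42 the estimated DHT-minus-vehicle difference was the more negative under siFoxA1 titles. Members are read on the same arrays and are not independent replicates, so this count is not a test. The share of all genes below 0 is not given here, and a dependence of the module was not shown. PTTG1 (-0.96 ± 0.22), NUSAP1 (-0.83 ± 0.25) and TOP2A (-0.74 ± 0.24) had the largest statistics, each with an adjusted p of 1. PTTG1 had 8.63 and 8.84 under DHT siFoxA1 titles and 9.25 and 9.57 under DHT parental titles, against 10.04 and 10.22 under vehicle siFoxA1 and 9.83 and 9.87 under vehicle parental titles, replicate 2 first. Its DHT arrays were thus lower under siFoxA1 titles, and its vehicle arrays higher. By siFoxA1 title and replicate number 0 members and 0% of genes were called, with 0 members and 164 genes at an unadjusted p under 0.05. CCNB1 (-0.89 ± 0.43), MAD2L1 (-0.60 ± 0.32) and NEK2 (0.81 ± 0.48) led, each with an adjusted p of 1.

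Taken within each siFoxA1 title, with 2 arrays on a side and no replicate term, hormone title gave 14 calls among siFoxA1 titles (13 fell and CKS2 rose, beside 0.93% of all genes, 0.521% lower and 0.41% higher) and 4 among parental titles (CKS2 rose and PRC1, TOP2A and UBE2C fell, beside 0.764% of all genes, 0.343% lower and 0.421% higher). With the replicate number as a block the counts were 33 (32 fell) and 23 (22 fell). The median over 47 members was -1.19 among siFoxA1 titles and -0.86 among parental titles. As the product of both titles called 0 members, a difference between these counts is not one that was shown.

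The DEX set was asked the same questions. Hormone title, DEX titles against vehicle titles, called 0 of 50 members and 0% of all 10999 genes, with 1 member and 221 genes at an unadjusted p under 0.05 by limma. The check gene FKBP5 was not separated by it either. FKBP5 had 13.81, 13.80, 9.39 and 9.23 under DEX titles, against 13.88, 13.89, 9.21 and 9.35 under vehicle titles. The order is siFoxA1 replicate 2, siFoxA1 replicate 1, parental replicate 2 and parental replicate 1. An effect of dexamethasone itself thus cannot be read from these titles. The median over the 50 members was -0.02 and the range ran from -0.46 for MKI67 to 0.32 for AURKA. AURKA had log2 levels of 7.83 and 8.99 under DEX siFoxA1 titles and 8.58 and 9.65 under DEX parental titles, against 7.28 and 8.78 under vehicle siFoxA1 and 8.29 and 9.43 under vehicle parental titles, replicate 2 first. Each DEX array lay above its vehicle counterpart, by less than the distance between replicates (0.32 ± 0.11, adjusted p = 1). CKAP2 (0.27 ± 0.15), FOXM1 (-0.24 ± 0.14), CCNA2 (-0.26 ± 0.16) and BIRC5 (-0.22 ± 0.13) followed, none called. MKI67, the antigen Ki-67 that coats mitotic chromosomes, was detected on 2 of 8 arrays only.

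Replicate number was the label along which the module differed most in the DEX set. Of 50 members 46 fell and 1, again CKS2, rose on replicate 2, where 27.2% of all genes were called (14.7% lower and 12.5% higher). The median was -1.45 (-0.95 without background correction), against 0.00 over all genes, in a range from -2.18 for BUB1 to 1.53 for CKS2. The 4 arrays of replicate 2 lay wholly below those of replicate 1 for 39 members and wholly above for 1, against 9.43% and 8.45% of all genes. Members not called were BUB3 (-0.17 ± 0.08), CKAP2 (-0.36 ± 0.15) and MKI67 (-0.57 ± 0.28). Detection on all 8 arrays held for 34 of the 50 members, of which 31 fell and 1 rose. Sizes of the other members, BUB1 (detected on 6 arrays) among them, rest partly on arrays near background.

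Single arrays are given here in the order DEX siFoxA1, vehicle siFoxA1, DEX parental and vehicle parental. CKS2 had log2 levels of 13.35, 13.31, 13.77 and 13.93 on the replicate 2 arrays, against 11.75, 11.69, 12.54 and 12.27 on the replicate 1 arrays. The replicate numbers did not overlap, with a difference of 1.53 ± 0.08 (limma, adjusted p = 6.85e-08) and 1.65 by its second probe. CDCA5 had 7.88, 7.63, 8.73 and 8.82 on the replicate 2 arrays, against 9.53, 9.39, 10.51 and 10.34 on the replicate 1 arrays. PRC1 had 8.84, 8.60, 9.42 and 9.31 on the replicate 2 arrays, against 10.20, 10.13, 10.85 and 10.87 on the replicate 1 arrays. In both, parental titles were the higher within each replicate number, and the replicate numbers did not overlap (-1.68 ± 0.10 and -1.47 ± 0.09, adjusted p = 1.93e-07 and 2.21e-07). CCNB2 had 7.74, 7.48, 8.33 and 8.50 on the replicate 2 arrays, against 9.36, 9.35, 10.14 and 10.16 on the replicate 1 arrays. It followed the same order, and fell by 1.74 ± 0.11 (adjusted p = 2.35e-07). CENPF had 6.40, 5.82, 6.52 and 6.70 on the replicate 2 arrays, against 8.19, 8.27, 8.41 and 8.76 on the replicate 1 arrays. Its difference of -2.05 ± 0.17 by replicate number (adjusted p = 2.18e-06) stood beside one of -0.43 ± 0.17 by siFoxA1 title that was not called (adjusted p = 0.0622).

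By role, 7 of 8 CDK1 partners fell on replicate 2, CDK1 by 0.66 ± 0.13 and FOXM1 by 1.77 ± 0.14, and CDC25C was at least 2.4-fold lower. So did 8 of 9 kinases and checkpoint proteins, with NEK2 at -1.88 ± 0.13 and AURKA at -1.22 ± 0.11, and PLK1 at least 1.32-fold lower. The 6 members of the anaphase and cohesion group fell, with UBE2C at -2.02 ± 0.16, CDC20 at -1.56 ± 0.11 and ESPL1 at least 1.66-fold lower. CDC25C, PLK1 and ESPL1 were not well above background on any replicate 2 array (limma, adjusted p = 3.86e-05, 0.00897 and 0.00263). All 3 passenger proteins tested fell (AURKB by 1.79 ± 0.23), as did all 6 kinetochore genes, among them NDC80 (-1.64 ± 0.18) and NUF2 (-1.74 ± 0.19), which were not tested in the DHT set. Of the kinesins and spindle proteins 11 of 12 fell, from RACGAP1 at -0.59 ± 0.17 to KIF23 at -2.01 ± 0.20, and of the chromosome structure genes 5 of 6, with NCAPG at -2.13 ± 0.19 and TOP2A at -1.59 ± 0.13.

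By siFoxA1 title 36 of 50 members fell and 0 rose in the DEX set, where 38.2% of all genes were called (21.4% lower and 16.8% higher). The median was -0.68 (-0.42 without background correction), against -0.06 over all genes, in a range from -1.21 for NCAPG to 0.19 for RACGAP1 and MKI67. For 0 of 50 members did the siFoxA1 arrays lie wholly apart from the parental arrays, against 12.9% of all genes lower and 13.1% higher; each title holds both replicate numbers. Without the replicate number in the model 0 of the 50 members were called. UBE2C had log2 levels of 7.89, 7.70, 10.24 and 10.22 on the arrays with siFoxA1 titles, against 9.24, 9.58, 11.05 and 10.99 on those with parental titles, in the order DEX replicate 2, vehicle replicate 2, DEX replicate 1 and vehicle replicate 1. BIRC5 had 6.54, 6.94, 8.65 and 8.66 on the arrays with siFoxA1 titles, against 7.84, 8.18, 9.40 and 9.55 on those with parental titles in that order. At the same hormone title and replicate number each siFoxA1 array was the lower for both genes, by -1.20 ± 0.16 overall for UBE2C and -1.04 ± 0.13 for BIRC5 (adjusted p = 6.06e-05 and 6e-05). CDCA5 (-1.0 ± 0.10, adjusted p = 8.33e-06) and CCNB2 (-0.80 ± 0.11, adjusted p = 8.71e-05) showed the same order of arrays. Without the replicate term these 4 had adjusted p between 0.34 and 0.474. CKS2 fell with the others here, by 0.60 ± 0.08 (adjusted p = 9.02e-05), unlike its difference by replicate number.

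The groups that fell by siFoxA1 title in the DEX set were 6 of 8 CDK1 partners, 8 of 9 kinases and checkpoint proteins, 4 of 6 anaphase and cohesion genes, 2 of 3 passenger proteins, 5 of 6 kinetochore genes, 6 of 12 kinesins and spindle proteins and 5 of 6 chromosome structure genes. CDK1 fell by 0.83 ± 0.13, CENPA by 1.16 ± 0.19 and NCAPG by 1.21 ± 0.19. The 6 spindle proteins not called were KIF11 (-0.51 ± 0.24), KIF20A (-0.21 ± 0.20), KIF23 (-0.29 ± 0.20), RACGAP1 (0.19 ± 0.17), HMMR (-0.21 ± 0.15) and CKAP2 (0.09 ± 0.15). For 48 of 50 members the replicate difference was larger in size than the siFoxA1 title difference, and 35 members fell by both labels. These comparisons use the same 8 arrays.

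Dependence on the replicate number was called for 3 of 50 members by siFoxA1 title in the DEX set, beside 5.06% of all genes (2.26% higher and 2.79% lower). KIF20A had 7.41 and 7.89 on replicate 2 and 8.62 and 8.63 on replicate 1 with siFoxA1 titles, against 7.28 and 7.31 on replicate 2 and 9.35 and 9.44 on replicate 1 with parental titles, DEX titles first. Its siFoxA1-minus-parental difference was 0.35 on replicate 2 and -0.77 on replicate 1, a change of sign with a size of 1.12 ± 0.24 (limma, adjusted p = 0.00776). RACGAP1 had 8.64 and 8.63 on replicate 2 and 8.70 and 8.80 on replicate 1 with siFoxA1 titles, against 7.94 and 8.01 on replicate 2 and 9.0 and 9.08 on replicate 1 with parental titles. The replicates thus lay together under siFoxA1 titles and apart under parental titles (0.95 ± 0.21, adjusted p = 0.00884), and its second probe gave 0.84. UBE2C went the other way, with a siFoxA1 title difference of -1.61 on replicate 2 and -0.79 on replicate 1 (-0.82 ± 0.19, adjusted p = 0.0141). Leaving out single arrays took each of these calls away in some cases: KIF20A was called under 11 of 14 alternatives, RACGAP1 under 11 and UBE2C under 8. Without vehicle siFoxA1 replicate 2 none of the 3 was called.

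Elsewhere in the DEX set the labels added without a called dependence. Over the module the siFoxA1 title difference had a median of -0.68 on replicate 2 (47 of 50 members below 0) and -0.65 on replicate 1 (49 of 50). The replicate difference had a median of -1.41 under DEX titles and -1.50 under vehicle titles, and of -1.47 under siFoxA1 and -1.46 under parental titles, with 49 of 50 members below 0 in each. Hormone title and replicate number called 0 members and 0% of genes (3 members and 299 genes at an unadjusted p under 0.05), led by HMMR (0.74 ± 0.24), AURKB (-1.0 ± 0.38) and SMC4 (0.51 ± 0.22), each with a limma adjusted p of 0.999. Hormone and siFoxA1 title called 0 members and 0% of genes (2 members and 218 genes at an unadjusted p under 0.05), led by CCNB1 (0.63 ± 0.24), KIF23 (0.78 ± 0.35) and KIF2C (0.64 ± 0.38), each with an adjusted p of 1. Among siFoxA1 titles alone hormone title called 0 members and 0% of genes (median 0.03, 64 genes at an unadjusted p under 0.05), and among parental titles 0 members and 0% of genes (median -0.06, 71 genes).

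The sets share no arrays, so their members can be laid side by side. Of 47 members tested in both, 38 fell by hormone title in the DHT set and 44 by replicate number in the DEX set. In both 36 fell, which is 94.7% of the first list and 81.8% of the second. As 44 of all 47 members fell by replicate number, a large overlap follows from these counts alone. Whether the overlap exceeded that was not tested. BUB3 and CKAP2 were called by DHT title and not by DEX-set replicate number. BUB1B, CCNB1, CDC25B, CDCA3, ESPL1, NEK2, PLK1 and SMC4 were called by DEX-set replicate number and not by DHT title, a difference between sets that was not tested, and CKS2 was the 1 member that rose in both. Across the 47 members the differences correlated at Pearson r = 0.70, and at 0.45 over the 46 without CKS2. The comparisons laid side by side are by unlike labels and were taken because the module differed in them. A correlation over all genes was not computed, so these values cannot be called particular to the module. Members are not independent replicates, and the same probe carries both values for 46 of the 47 (DLGAP5 was read on different probes). By siFoxA1 title in the DEX set 34 of the 47 fell, 27 of them also by DHT title, which is 71.1% of the DHT-title list and 79.4% of the siFoxA1-title list (r = 0.29 over 47 members and 0.38 over 46 without CKS2). These 27 of 38 stand beside 34 of all 47 members, and the overlap was not tested against those counts. CDC25B and ESPL1 fell neither by DHT title nor by DEX-set siFoxA1 title.

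**Figure D3:**
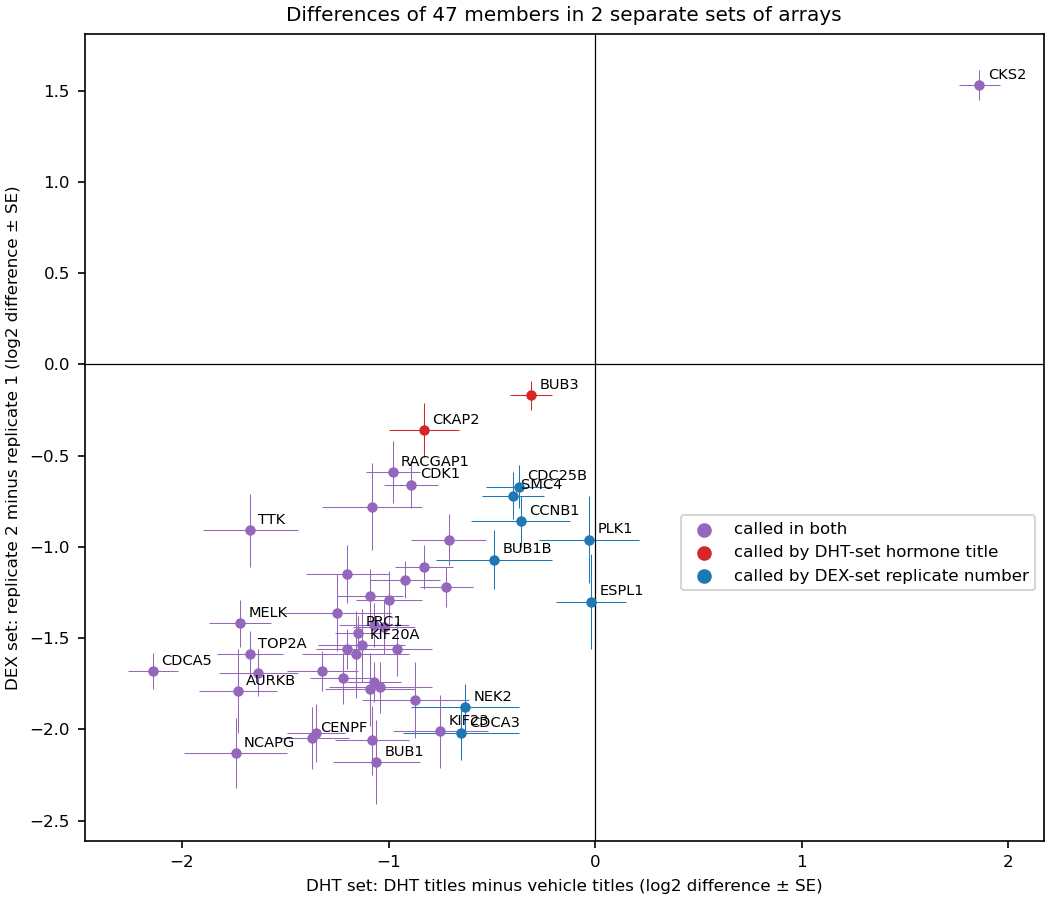
Differences of the 47 members tested in both sets: DHT titles minus vehicle titles in the DHT set (horizontal) against replicate 2 minus replicate 1 in the DEX set (vertical), log2 scale, bars ± SE; colour says in which set a member was called. CKS2 lies alone at the upper right, and the other 46 lie below 0 on both axes.

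Other genes of the cell cycle place the module. Of 47 further mitotic genes tested in the DHT set, 32 fell and 1 rose by hormone title (median -0.88), among them the centromere protein CENPM at -1.67 ± 0.15 and PKMYT1, the kinase that restrains CDK1, at least 2.02-fold lower and not well above background under DHT titles (limma, adjusted p = 6.55e-05). In the DEX set 51 of 59 fell and 1 rose by replicate number (median -1.11), and 32 fell and 0 rose by siFoxA1 title (median -0.54). G1/S and DNA replication genes fell in the same comparisons: 29 of 36 fell by DHT title (median -0.86), 34 of 40 by DEX-set replicate number (median -0.88) and 28 of 40 by DEX-set siFoxA1 title (median -0.56), with 0 that rose in each. CDC45, of the replicative helicase, fell by 2.16 ± 0.15 under DHT titles, and on replicate 2 of the DEX set by 2.00 ± 0.12.

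Subunits of the machines that act on the module's products were mostly not called. In each set 12 genes for subunits of the anaphase-promoting complex were tested, and its activator FZR1 was tested in neither. Of the 12, 1 rose and 1 fell by DHT title (median 0.04), and 1 rose and 1 fell by DEX-set replicate number (median 0.06). By DEX-set siFoxA1 title 1 rose and 2 fell (median -0.05). The subunit ANAPC5 fell by 0.52 ± 0.08 under DHT titles and by 0.44 ± 0.09 on replicate 2 of the DEX set. Of cohesin genes 0 of 8 were called by DHT title and 0 of 9 by DEX-set replicate number, and PDS5B, a cohesin regulator, rose by siFoxA1 title (0.50 ± 0.10). Among DREAM and MuvB regulators 0 of 13 were called by DHT title, 1 of 15 fell by DEX-set replicate number and 3 of 15 by siFoxA1 title, where TFDP1, the dimer partner of E2F proteins, was at -0.75 ± 0.09.

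Among 10 tested CDK inhibitors and stress-induced brakes of G2/M, most of those called moved opposite to the module, and the others were not called. By DHT title 6 rose and 0 fell, beside 10.6% of all genes higher and 12.5% lower. Among them were p57 (CDKN1C) at 2.86 ± 0.31, the antiproliferative gene BTG1 at 1.41 ± 0.11 and p21 (CDKN1A) at 0.91 ± 0.10. CDKN1C was detected on 6 of the 8 arrays, so the size of its difference is uncertain. With DHT titles it had 9.86 and 10.03 on replicate 2 and 7.42 and 8.17 on replicate 1, siFoxA1 titles first. Its arrays with vehicle titles ran from 5.73 to 6.27. By replicate number in the DEX set 5 rose and 0 fell, with BTG1 at 1.55 ± 0.09 and CDKN1A at 1.37 ± 0.14. Of all genes 12.5% were higher there and 14.7% lower. By siFoxA1 title in the DEX set 5 rose and 1 fell, beside 16.8% of all genes higher and 21.4% lower. GADD45B, a stress-induced inhibitor of CDK1, was at 2.64 ± 0.30, CDKN1C at 2.54 ± 0.24 and the atypical cyclin CCNG2 at -0.72 ± 0.12.

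**Figure D4:**
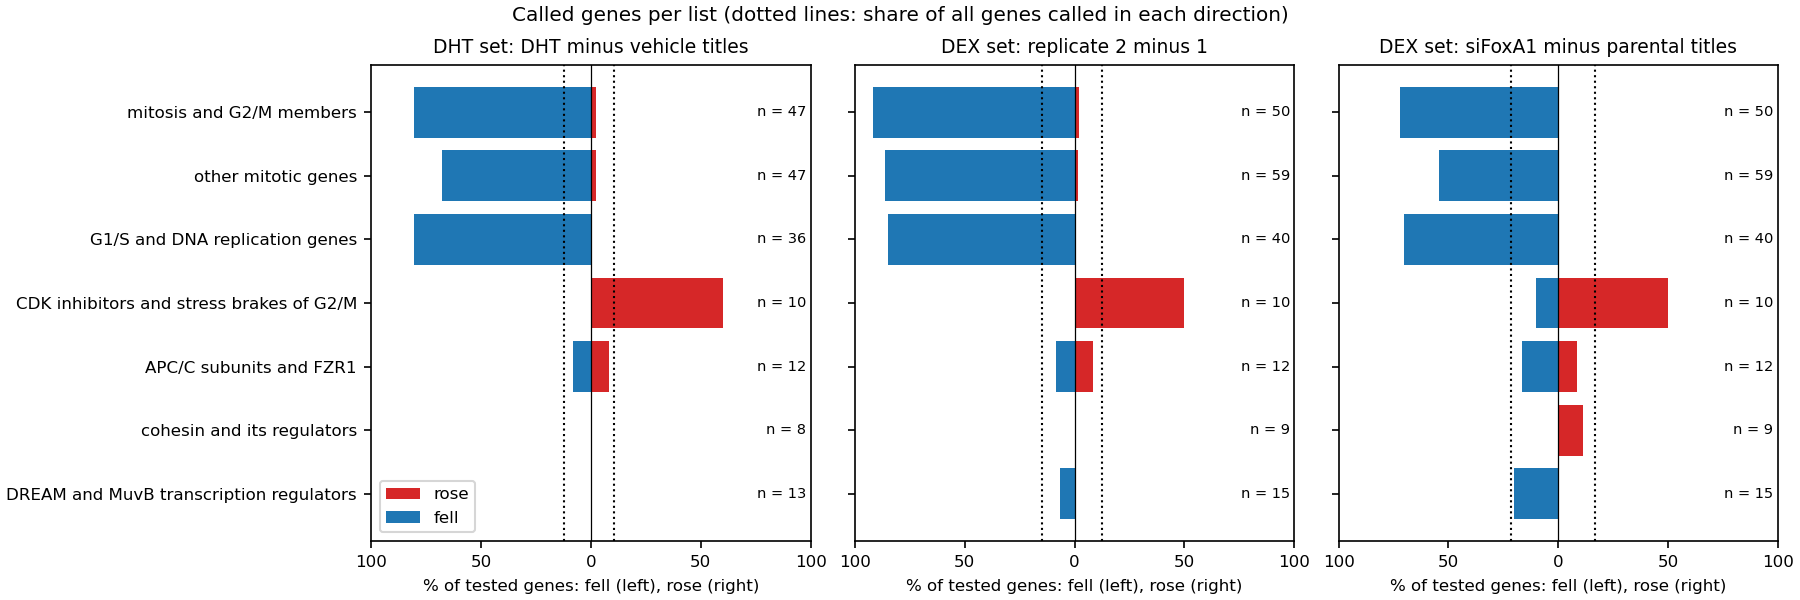
Share of the tested genes of each list that rose (red, right) or fell (blue, left) in the 3 comparisons in which the module differed; n is the number tested and dotted lines are the shares of all genes called. The module, the other mitotic genes and the G1/S genes lean left in each panel, and the CDK inhibitors and brakes lean right.

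Some markers of other cells also differed between the compared arrays. ACTA2, the 1 fibroblast and smooth muscle marker of 8 that passed in the DHT set, ran from 7.28 to 11.56 (log2 level) under DHT titles and from 7.18 to 8.22 under vehicle titles. The summed level of CD68 and VWF, of 8 blood and endothelial markers, was 8.44 to 9.96 under DHT titles and 6.68 to 8.13 under vehicle titles. CD68 alone was 8.32 to 9.91 under DHT titles and 6.11 to 7.09 under vehicle titles. VWF, detected on 2 arrays, did not rise with it, at 4.74 to 5.23 under DHT titles and 4.93 to 7.17 under vehicle titles. In the DEX set the summed level of COL1A1 and ACTA2 was 7.81 to 11.21 on replicate 2 and 7.41 to 11.85 on replicate 1. COL1A1 alone was lower on replicate 2, at 6.09 to 6.53 against 6.55 to 7.17 on replicate 1. The sum of CD68 and HBB was 9.18 to 10.96 on replicate 2 and 7.25 to 9.5 on replicate 1. By siFoxA1 title in the DEX set the sum of COL1A1 and ACTA2 was 10.98 to 11.85 under siFoxA1 titles and 7.41 to 7.86 under parental titles. ACTA2 alone was 10.91 to 11.79 under siFoxA1 titles and 6.17 to 7.24 under parental titles, and the titles did not overlap. For COL1A1 alone they did, at 6.09 to 7.17 under siFoxA1 titles and 6.29 to 6.67 under parental titles. CD68 was 9.28 to 10.58 under siFoxA1 titles and 6.97 to 9.26 under parental titles, and its sum with HBB was 9.37 to 10.96 and 7.25 to 9.33 under those titles. The 8 luminal markers summed to 14.84 to 15.05 under DHT titles and 14.80 to 15.82 under vehicle titles. In the DEX set they summed to 14.59 to 14.67 on replicate 2 and 14.66 to 14.88 on replicate 1. There the sum was 14.64 to 14.88 under siFoxA1 titles and 14.59 to 14.66 under parental titles. These sums hide single markers that moved in opposite directions. By hormone title in the DHT set 1 of the 8 rose and 2 fell. By replicate number in the DEX set 2 rose and 4 fell, and by siFoxA1 title there 1 rose and 2 fell. KRT8 was 12.68 to 13.29 under siFoxA1 titles of the DEX set and 10.55 to 11.54 under parental titles. HOXB13 was 10.56 to 10.83 and 11.36 to 11.52 under those titles. The part of these genes in the module's differences was not tested. The median level over members was 6.67 to 6.85 under DHT titles and 7.71 to 8.05 under vehicle titles, while the median over all genes of the DHT set stayed within 8.55 and 8.58 on the 8 arrays.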

How the data were processed

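Sample titles gave the groups and numbers, and each set of 8 arrays was run on 1 chip. The authors deposited, per the file headers, scanner exports with a mean bead intensity and a detection p-value per probe and no normalization (BeadStudio, per the submitters' processing notes). A second deposited intensity table per set, with 33.4% and 29.2% of values below 0, was made by the authors by a method that is not given in the sources used here. Scanner rows were joined to probe identifiers by their ranks on the 8 arrays (48794 and 47231 rows, 1 to 1). The join and the models were tested on simulated data. A detection p of 1 written with a shifted separator (353 and 273 cells) was read as 1.

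The neqc function of limma 3.58.1 (R 4.3.3) corrected the background, equalised the quantiles of the 8 arrays of a set and took log2 after adding 16. Probes detected on at least 2 arrays were kept (13094 and 18391), and the highest-mean probe with 1 symbol stood for a gene. Limma models held hormone title, siFoxA1 title and replicate number (4 residual degrees of freedom), with 1 product added for dependence. Two-sided p-values received the Benjamini-Hochberg adjustment across all genes tested in that set. Arrays of the same number deviated together: between any 2 groups, the replicate differences of the authors' values correlated at 0.38 to 0.67 (DHT set) or 0.45 to 0.63 (DEX set). An "at least" fold compares the bright group with the detection limit of the dim arrays, averaged over the arrays of each group.

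Members, lists, models and alternatives were chosen with earlier results of these data known. Given with a value for every array were the members with the largest statistics: up to 6 per set for hormone title, 4 for siFoxA1 title, 4 for replicate number and 3 per product, some by their differences only. Other members are given by their role group. Of the 9 luminal markers, 1 was not analysed here. Alternatives were other background corrections, scaling, the authors' values floored at 16, other detection filters, other models and leaving out single arrays.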

Additional observations from a re-analysis of the deposited data

Results flagged for a closer look

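Differences that depended on another label were called for 4 combinations of member and comparison, by limma with the product in the model. KIF20A in the DHT set had a DHT-minus-vehicle difference that was higher on replicate 2 than on replicate 1 by 1.08 ± 0.30 (adjusted p = 0.0256). In the DEX set the siFoxA1-minus-parental difference of KIF20A was higher on replicate 2 than on replicate 1 by 1.12 ± 0.24 (adjusted p = 0.00776), and that of RACGAP1 by 0.95 ± 0.21 (adjusted p = 0.00884). UBE2C was at -0.82 ± 0.19 in the same comparison (adjusted p = 0.0141), with the more negative difference on replicate 2. KIF20A is the 1 member found in both sets, and it has a single probe on each array version.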

How the results depend on the processing

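Of 230 counts of called members under alternatives (16 comparisons), 198 stayed within 1.5 times the reported count. Of 660 values for 46 combinations of a named member and a comparison, 633 kept direction and side of the threshold, 24 lost the call, 3 gained one and 0 reversed. Some members are in more than 1 of these combinations. The cause was not tested in the cases below unless it is named. With detection required on all 8 arrays, hormone title in the DHT set called 25 of 28 members, and 8 among siFoxA1 titles; fewer members were then tested. With all pairwise products, replicate number called 4 members in the DHT set. Without a detection filter, the product of hormone title and replicate number called 0 there. With the replicate block, hormone title called 23 members among parental and 33 among siFoxA1 titles of the DHT set, and 0 in the same comparisons of the DEX set. Without the block, siFoxA1 title in the DEX set called 0 members, and DHT-set hormone title 30. Leaving out 1 array at a time gave 1 to 2 calls for DHT-set replicate number, 0 to 1 for its product with hormone title, 0 to 1 for hormone title among parental and 0 to 10 among siFoxA1 titles, and 0 to 4 for the DEX-set product of siFoxA1 title and replicate number. It gave 36 to 40 calls for hormone title in the DHT set, and 44 to 47 for replicate number and 30 to 36 for siFoxA1 title in the DEX set. Without background correction the median by hormone title in the DHT set was -0.61 (-0.7 among siFoxA1 and -0.53 among parental titles), and those in the DEX set were -0.95 by replicate number and -0.42 by siFoxA1 title. With the authors' values the DHT-set median was -1.21. Low signal limits TTK, BUB1, SPC25, KIF11 and KIF4A (DHT set) and CDC25C, PLK1 and ESPL1 (DEX set) to bounds, and FOXM1, CDC25C and KIF23 in the DHT set to a call with no size.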

Other observations

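Replicate number called 6 of 47 other mitotic genes in the DHT set (12.8%, 3 rose and 3 fell on replicate 2) and 7 of 36 G1/S genes (19.4%, all 7 lower), beside 16.4% of all genes. A difference of these counts from that of the module was not tested. NCAPD3, a condensin II subunit, was higher on replicate 2 by 2.14 ± 0.31 and the phosphatase CDC25A by 1.43 ± 0.26, while LMNB1, the B-type lamin of the nuclear envelope, was at -0.71 ± 0.13. Both also had a hormone title difference that depended on the replicate number, by -2.03 ± 0.25 for NCAPD3 and 1.43 ± 0.32 for CDC25A (limma, adjusted p = 3.89e-06 and 0.00466). NCAPD3 had log2 levels of 8.56 and 8.55 on replicate 2 and 7.68 and 7.18 on replicate 1 with DHT titles, against 10.98 and 10.68 on replicate 2 and 7.69 and 7.65 on replicate 1 with vehicle titles, siFoxA1 titles first. It was thus lower under DHT titles mainly on replicate 2 (-1.26 ± 0.31 over both). The condensin I subunits NCAPG and NCAPD2 of the module fell by hormone title and were not called by replicate number.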
